A study of Mus musculus with 8 samples.

Results

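The genes described here encode the proteins of the cytosolic ribosome and their paralogs, in cultured mouse satellite cells given sal003 or DMSO. They were found by symbol in a table of 39017 genes: Rpl or Rps followed by a number and at most a letter and a digit, together with Rplp0, Rplp1, Rplp2, Rpsa and Rpl36al, with rows named as -ps pseudogenes left out. The rule found 89 rows. By the GENCODE M21 annotation of the mm10 build, 45 were genes of large-subunit proteins, 31 were genes of small-subunit proteins, 7 were paralogs and 5 were annotated as pseudogenes (Rps12l1, Rps12l2, Rps3a2, Rps3a3 and Rps4y2). The remaining row was out of place: the row with the symbol Rpl24 carried ENSMUSG00000022601, the identifier of the zinc finger gene Zbtb11. The 76 large- and small-subunit genes are called core genes below.

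The ribosome is built from a small subunit, which reads the mRNA, and a large subunit, which joins the amino acids, and each holds ribosomal RNA and many proteins, most of them needed in equal numbers. Many ribosomal protein mRNAs in mammals begin with a run of pyrimidines, the 5′ terminal oligopyrimidine (TOP) motif, through which mTOR and the RNA-binding protein LARP1 set their translation and stability. Satellite cells are the resident stem cells of skeletal muscle, and ribosome production is known to increase when they leave quiescence and divide. Sal003, a derivative of salubrinal, keeps the translation initiation factor eIF2α phosphorylated, and the study's title ties satellite cell expansion to that phosphorylation.

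There were 4 sal003 libraries and 4 DMSO libraries. Every culture came from adult Pax3GFP/+ mice, heterozygous for a GFP reporter at Pax3, with diaphragm and abdominal muscle as the source, so all cells of both groups carried that allele. Plates of 35 mm received 7500 cells and were kept for 4 days in 10 µM sal003 or in DMSO (the treatment protocol in the labels reads 10 mM). The labels do not say whether replicates came from separate animals, so p-values measure the spread between these libraries, which may be technical.

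Total counts were 37248830 to 39378523 in the sal003 libraries and 32753929 to 40234107 in the DMSO libraries. DMSO replicate 2 stood apart, with 14437 genes detected against 16561 to 18076 in the other libraries, and with Spearman correlations of at most 0.949 to the other DMSO libraries, which correlated with each other at 0.977 or more. The satellite cell markers Pax7 and Myod1 were present in all 8 libraries. Among listed markers of other cell types, Ptprc and Adgre1 (immune), Dcn and Lum (fibro-adipogenic) and Emcn (endothelial) were at 0 in all 8 libraries. Other markers of those lists were counted in every library: Cd68 (immune) with 30 to 186 counts, Pdgfra (fibro-adipogenic) with 10 to 145 and Pecam1 (endothelial) with 16 to 209. Itgam (immune) had 0 to 12 counts with sal003 and 36 to 90 with DMSO (edgeR adjusted p = 0.0857). Summed per library, the immune list had 2.16 to 4.56 CPM (TMM-scaled counts relative to library size) with sal003 and 2.36 to 5.82 CPM with DMSO, the fibro-adipogenic list 1.85 to 2.81 CPM with sal003 and 1.02 to 5.23 CPM with DMSO, and the endothelial list 2.75 to 6.04 CPM with sal003 and 0.890 to 4.29 CPM with DMSO, with 0 of their 7 tested genes called. Summed smooth muscle and pericyte markers were 184 to 211 CPM with sal003 and 259 to 344 CPM with DMSO, with 2 of 4 tested markers lower; the part of these markers in the results below was not tested. The libraries are bulk RNA, in which fewer cells of a type and less RNA per cell cannot be told apart.

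With sal003, 11 core ribosomal protein genes were higher, 9 of the large and 2 of the small subunit, with log2 fold changes of 0.29 to 0.70, and the other 65 core genes were not called. Of the 85 member rows that passed the filter on low counts, 12 (14.1%) were called higher by edgeR's quasi-likelihood test at an adjusted p below 0.05, against 10.6% of all 15816 genes tested, and 0 were called lower, against 12.2% of all genes. The share called higher was therefore near that of all genes, and 73 members were not called in either direction. At an unadjusted edgeR p below 0.05 were 22 of the 85 members and 5044 of all 15816 genes, a smaller share of the members than of all genes. The log2 fold change was above 0 for 77 of 85 members (90.6%), compared with 49.8% of all genes, and the median over members was 0.21 (quartiles 0.11 and 0.36) against -0.00 over all genes. All 4 sal003 libraries lay above all 4 DMSO libraries for 17 of 85 members, against 13.1% of all genes, and all 4 lay below for 1 member, Rps4y2, against 13.7% of all genes.

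The count of calls depended on single libraries. It was 6 of 86 without sal003 replicate 1 (6.98%, against 7.76% of all genes), 6 of 85 without sal003 replicate 3 (7.06%, against 8.23%) and 7 of 86 without sal003 replicate 4 (8.14%, against 8.41%), so in these fits the members' share was below that of all genes. It was 18 of 86 without DMSO replicate 2 (20.9%, against 13.4%) and 10 of 85 without sal003 replicate 2 (11.8%, against 7.89%). Without DMSO replicate 1 it was 12 of 86 (14.0%, against 9.18%), and without DMSO replicate 3 it was 9 of 86 (10.5%, against 9.18%). Without DMSO replicate 4 it was 11 of 85 (12.9%, against 10.4%). When any DMSO library or sal003 replicate 2 was left out, the members' share was above that of all genes. Among genes with at least 10 CPM in 4 libraries, 10 of 72 members were called higher (13.9%, against 17.4%). Without DMSO replicate 2, 1 member was called lower, Rps4y2, against 13.6% of all genes. Limma-voom called 19 higher (13.7% of all genes) and DESeq2 14 (11.6% of all genes), and each called Rps4y2 alone lower (15.3% and 13.5% of all genes). The median stayed between 0.17 and 0.26 over these and the other settings tried.

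**Figure D1:**
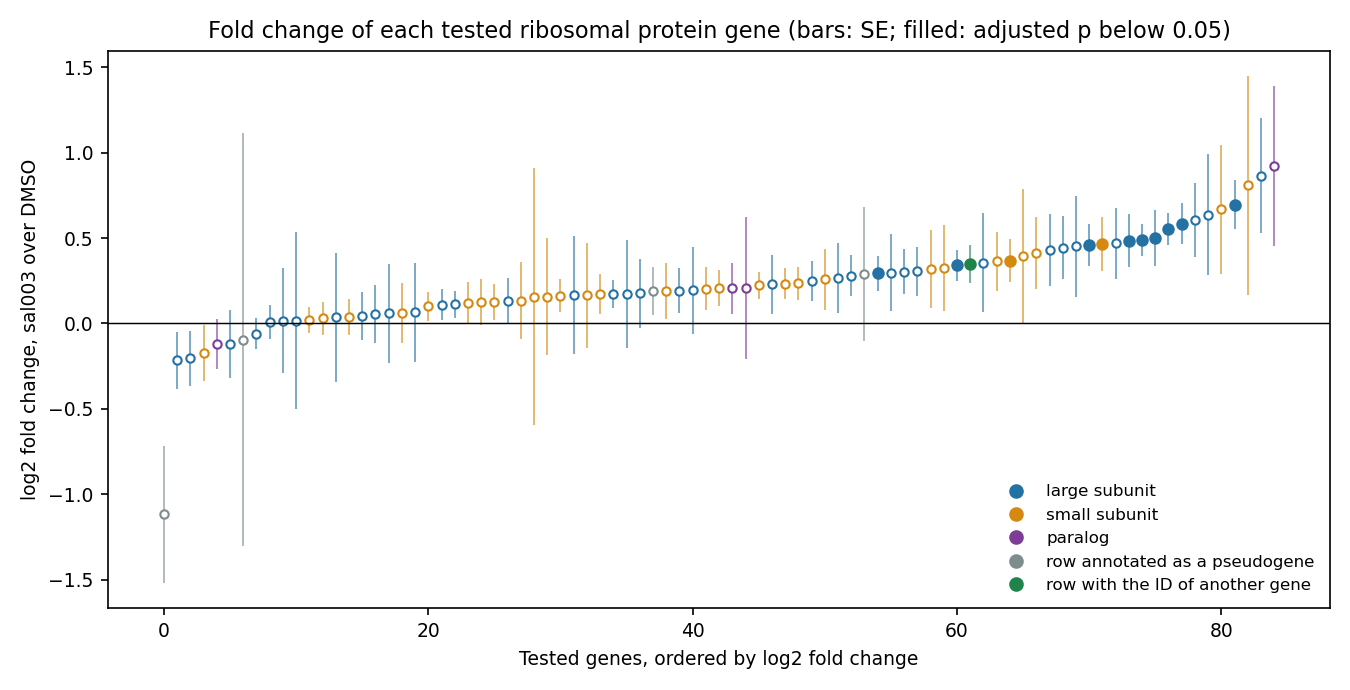
Log2 fold change, sal003 over DMSO, of the 85 tested ribosomal protein genes in rank order on the x axis, with the SE as bars, coloured by class and filled where the edgeR adjusted p was below 0.05. Of these, 77 lie above 0, and the 12 filled points lie between 0.29 and 0.70, while the points with the widest bars are low-count genes that were not called.

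As a share of all counts, the member rows held 1.34%, 1.37%, 1.44% and 1.45% in the sal003 libraries, against 1.14%, 1.10%, 1.08% and 1.11% in the DMSO libraries. The shares did not overlap and averaged 1.404% ± 0.0537 with sal003 and 1.11% ± 0.0230 with DMSO (SD, n = 4 each). These shares are not scaled by TMM. The nuclear genes among the 20 most abundant of the table, with any nuclear ribosomal RNA rows, took 8.87% ± 0.214 of counts with sal003. They took 14.4% ± 0.944 with DMSO, and mitochondrial genes are not in these 2 figures. With mitochondrial genes, ribosomal RNA genes and the 20 most abundant genes taken out of the total, the members held 1.64% ± 0.0662 with sal003 and 1.38% ± 0.0134 with DMSO. On the TMM scale, the members' median log2 deviation from their DMSO mean was 0.19, 0.16, 0.33 and 0.30 in the sal003 libraries and 0.05, -0.14, 0.09 and 0.04 in the DMSO libraries. All sal003 medians were above all DMSO medians, and DMSO replicate 2 was the lowest.

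Among large-subunit genes, 9 of 45 were called higher (20%) with a median log2 fold change of 0.25, and among small-subunit genes 2 of 31 (6.45%) with a median of 0.19. The difference between the subunits was not tested. The called core genes were Rpl3, Rpl4, Rpl6, Rpl7a, Rpl12, Rpl14, Rpl18, Rpl21, Rpl32, Rps20 and Rps25. Rpl3, Rpl4, Rpl6, Rpl7a, Rpl12 and Rpl32 were called in each of the 8 fits that left out a library and under each of the 13 other settings.

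Rpl3 encodes a core protein of the large subunit near the peptidyl transferase centre, and its striated-muscle paralog Rpl3l replaces it in adult muscle fibres. Rpl3 (ENSMUSG00000060036, chr15:80077791-80091868, minus strand) had 162, 140.3, 172 and 158 CPM in the sal003 libraries, against 102, 104, 112 and 114 CPM in the DMSO libraries. The groups did not overlap, and each was tight. Its log2 fold change was 0.55 ± 0.09 (SE), with an edgeR adjusted p of 0.000430, the smallest among the members.

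Rpl6, a large-subunit protein (chr5:121204481-121209241, plus strand), had 217, 179.7, 205 and 186 CPM in the sal003 libraries, against 135, 127, 148 and 151 CPM in the DMSO libraries. Every sal003 library was above every DMSO library, and the log2 fold change was 0.49 ± 0.10 (edgeR adjusted p = 0.00130). Rpl12, a protein at the base of the large-subunit stalk (chr2:32961559-32965345, plus strand), had 46.3, 45.0, 56.7 and 43.5 CPM in the sal003 libraries, against 30.6, 25.4, 29.0 and 33.0 CPM in the DMSO libraries. Sal003 replicate 3 was the highest of the 8, and the DMSO libraries all lay below the sal003 ones. The log2 fold change of 0.70 ± 0.14 was the largest of the called members (edgeR adjusted p = 0.00188). An exon of Lrsam1 overlaps Rpl12 on the other strand. Of the called core genes, Rpl32 (Cand2), Rpl18 (Sphk2) and Rps25 (Ccdc84 and Trappc4) also have such an overlap.

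Rpl32, another large-subunit gene (chr6:115805505-115808747, minus strand), had 226, 219, 262 and 255 CPM in the sal003 libraries, against 161, 122, 169 and 191 CPM in the DMSO libraries. The groups were apart, with DMSO replicate 2 the lowest; the log2 fold change was 0.58 ± 0.12 (edgeR adjusted p = 0.00208). Rpl4, which has a long loop lining the exit tunnel (chr9:64173375-64178666, plus strand), had the highest level per kb of the called members (569.9 CPM per kb), with 987, 939, 1015 and 979 CPM in the sal003 libraries, against 716, 667, 822 and 888 CPM in the DMSO libraries. The sal003 values were close together, and the DMSO values were all lower and more spread. For Rpl4 the log2 fold change was 0.34 ± 0.09 (edgeR adjusted p = 0.0119). Rpl7a (chr2:26910764-26913318, plus strand) had 99.8, 113, 121 and 121 CPM in the sal003 libraries, against 83.2, 66.3, 80.2 and 101 CPM in the DMSO libraries. DMSO replicate 4 exceeded sal003 replicate 1, so the groups overlapped; the log2 fold change was 0.46 ± 0.12 (edgeR adjusted p = 0.0131).

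**Figure D2:**
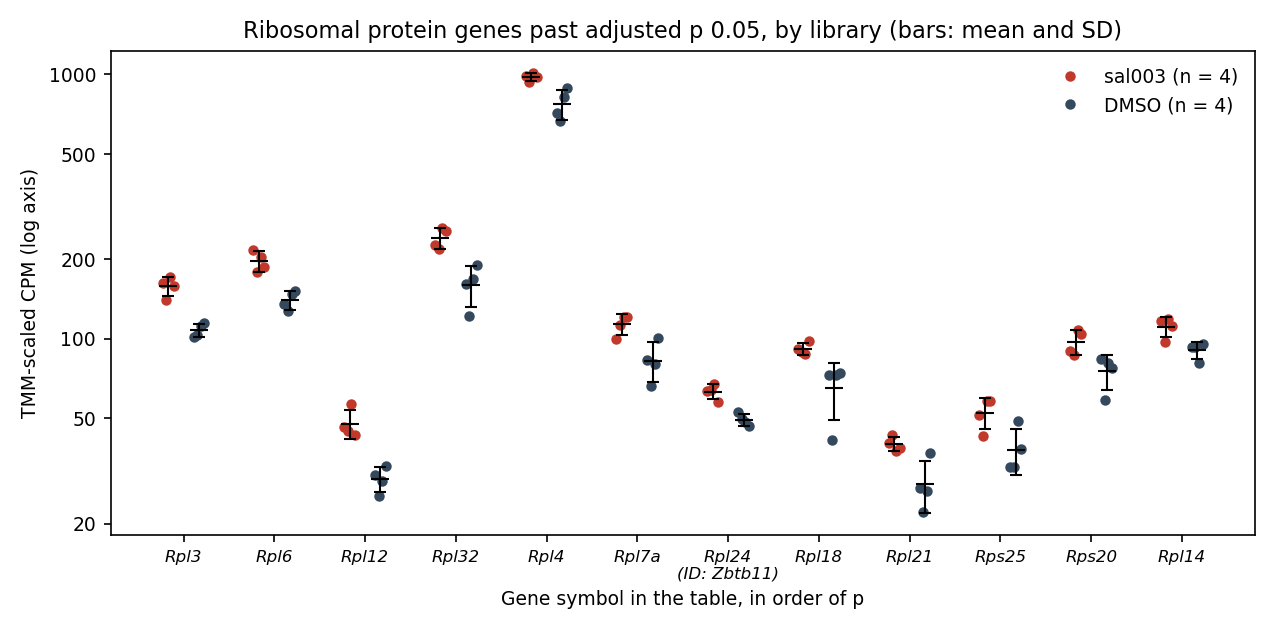
TMM-scaled CPM (log axis) in each sal003 and DMSO library for the 12 ribosomal protein genes called higher, in order of p, with the mean and SD as bars. Rpl4 is highest, with a mean of 979.7 CPM with sal003 and 773 CPM with DMSO, and Rpl7a is a gene whose groups overlap; the Rpl24 symbol stands on the identifier of Zbtb11.

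The other 5 called core genes lay nearer the threshold. Rpl18 had 91.2, 89.0, 87.4 and 98.2 CPM in the sal003 libraries, against 73.1, 41.5, 72.8 and 74.0 CPM in the DMSO libraries, where replicate 2 lay far below the other 3. Its log2 fold change was 0.48 ± 0.16 (edgeR adjusted p = 0.0347); 4 of the 8 fits that left out a library lost this call, and the adjusted p was 0.326 when counts of its -ps pseudogene rows were added. Rpl21 had 40.5, 43.3, 37.7 and 38.5 CPM in the sal003 libraries, against 27.3, 22.2, 26.5 and 37.1 CPM in the DMSO libraries, with no overlap. Relative to DMSO, Rpl21 changed by a log2 fold of 0.50 ± 0.16 (edgeR adjusted p = 0.0360), lost in 6 of 8 such fits and, at 0.0973, with its 13 -ps rows added.

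Rps25, a small-subunit protein needed by some viral internal ribosome entry sites, had 51.4, 43.0, 58.0 and 58.1 CPM in the sal003 libraries, against 32.7, 32.8, 48.8 and 38.2 CPM in the DMSO libraries, where replicate 3 was above sal003 replicate 2. Its log2 fold change was 0.47 ± 0.16 (edgeR adjusted p = 0.0421), lost in 5 of 8 fits, by limma-voom and with pseudogene rows added (adjusted p up to 0.139 over the 13 other settings). Rps20 had 90.2, 86.9, 108 and 104 CPM in the sal003 libraries, against 84.1, 58.8, 81.2 and 77.4 CPM in the DMSO libraries, with no overlap. For Rps20 the log2 fold change was 0.37 ± 0.13 (edgeR adjusted p = 0.0455), lost in 4 of 8 fits, with upper-quartile scaling, with the 10 CPM filter and with the GC trend removed (adjusted p up to 0.285). Rpl14 had 117, 97.1, 118 and 112 CPM in the sal003 libraries, against 93.1, 93.1, 80.8 and 95.3 CPM in the DMSO libraries, also without overlap and with DMSO replicate 3 the lowest. Its log2 fold change was 0.29 ± 0.10 (edgeR adjusted p = 0.0494), lost in 5 of 8 fits and under 7 of the 13 other settings, pseudogene rows among them (adjusted p up to 0.129).

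The row with the symbol Rpl24 had 63.7, 63.9, 67.5 and 57.6 CPM in the sal003 libraries, against 52.9, 49.9, 48.3 and 47.0 CPM in the DMSO libraries, with a log2 fold change of 0.35 ± 0.11 (adjusted p by edgeR = 0.0320). Of the 8 leave-one-out fits, 5 did not call it, nor did the fits with no count filter, with the replicate block or with the GC trend removed (adjusted p up to 0.236). By its identifier this is Zbtb11 and not a ribosomal protein. The identifier of Rpl24 itself, ENSMUSG00000098274, stood beside the capitalised symbol RPL24, which the rule does not take. That row had 4.53, 7.60, 9.73 and 9.76 CPM in the sal003 libraries, against 5.46, 4.45, 9.90 and 7.44 CPM in the DMSO libraries. The ranges overlapped widely, and its log2 fold change was 0.21 ± 0.34 (edgeR adjusted p = 0.755).

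Promoter sequence is shown for the 7 called core genes that RefSeq's promoter table (GRCm38.p6) held, and for Rps6 as a gene that was not called but has a TOP-like start. Each line gives 50 bases before the annotated start and the first 20 transcribed bases, 5′ to 3′, with the longest run of C and T in capitals, the feature that defines a TOP mRNA when it begins at the cap.
Rpl6 (chr5:121204451-121204520, plus strand): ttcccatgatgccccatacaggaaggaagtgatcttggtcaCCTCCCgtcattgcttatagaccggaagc
Rpl12 (chr2:32961662-32961731, plus strand): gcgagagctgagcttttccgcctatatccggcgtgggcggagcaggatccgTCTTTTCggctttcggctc
Rpl4 (chr9:64173337-64173406, plus strand): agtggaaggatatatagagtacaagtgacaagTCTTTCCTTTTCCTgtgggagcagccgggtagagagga
Rpl7a (chr2:26910757-26910826, plus strand): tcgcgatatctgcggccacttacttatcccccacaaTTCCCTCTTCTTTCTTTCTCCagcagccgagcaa
Rpl18 (chr7:45718021-45718090, plus strand): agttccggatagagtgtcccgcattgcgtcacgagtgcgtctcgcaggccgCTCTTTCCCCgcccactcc
Rps25 (chr9:44407664-44407733, plus strand): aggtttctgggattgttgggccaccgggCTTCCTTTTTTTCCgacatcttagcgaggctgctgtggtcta
Rpl14 (chr9:120571467-120571536, plus strand): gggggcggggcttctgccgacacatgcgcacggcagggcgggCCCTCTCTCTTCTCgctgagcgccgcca
Rps6 (chr4:86857348-86857417, minus strand): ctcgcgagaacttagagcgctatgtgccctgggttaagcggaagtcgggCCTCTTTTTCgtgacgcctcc

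In Rpl14 and Rps6 the run spanned the annotated start, with C at the start and at least 4 further C or T. In Rpl12 and Rpl18 the run began 1 base after the annotated start, and in Rpl7a it spanned a start that was itself a T. In Rpl4, Rpl6 and Rps25 the longest run ended before the RefSeq start. The gene start of Rpl4 in GENCODE M21 (chr9:64173375) lay inside its run, at a C followed by at least 4 further C or T. Over the 63 members with a promoter in the table, 12 (19.0%) had a C at the annotated start followed by at least 4 C or T, compared with 2.49% of all 27025 genes in the table. An annotated start is not a measured one, and a run next to it was not counted. The count used the RefSeq starts only and was not repeated with GENCODE starts.

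Other letters were searched in the 300 bases from 250 before to 50 after the start, on both strands. The core of the ETS-family (GABP) motif, CCGGAAG, was in 25 of the 63 members (39.7%) and in 9.12% of all genes. The SP1 core GGGCGG was in 39 members (61.9%) and in 35.9% of all genes. The YY1 core AAGATGG was in 9 members (14.3%) against 6.48% of all genes, and TATAAA was in 6 members (9.52%) against 14.2% of all genes. None of these motifs contains another. These are matches of letters, not measured binding.

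Some core genes hosted small nucleolar RNAs, which guide ribosomal RNA modification, and some overlapped other genes. Within the bounds of 30 of the 76, on the same strand, lay 58 annotated small nucleolar RNAs. Whether each lies in an intron was not checked. Of the 11 called core genes, 8 hosted at least 1 (Rpl4 hosted 5, Rpl7a 3). The 76 core genes lay on 19 chromosomes. Exons of 18 core genes overlapped a gene on the other strand and those of 5 overlapped a gene on the same strand; no source used here states whether counting used strand, so reads in those stretches cannot be told apart.

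Levels differed widely between core genes. Per kb of the principal transcript, mean CPM over the 8 libraries ran from 3.27 in Rps13 to 1349 in Rpl13a, a 413-fold range, with a median of 87.4. The highest after Rpl13a were Rpl26 (1166 CPM per kb), Rplp1 (874), Rpsa (659.9) and Rplp0 (649), and the lowest after Rps13 were Rpl17 (6.88) and Rps27 (7.42). The lowest genes share much of their sequence with other loci, where reads may be split or left uncounted; the part of this in the levels was not tested. Of the 50-base windows of Rps27's transcript, 98.6% were also found in a gene at another locus, and the figure was 83.0% for Rps13 and 78.7% for Rpl17. Among the highest genes the figure was 22.0% for Rpl13a, 71.3% for Rpl26, 60.0% for Rplp1, 53.7% for Rpsa and 41.8% for Rplp0. Over the 76 core genes the median was 55.0%, and 46 had 50% or more. For the genes called in every fit, it was 85.6% in Rpl3, 81.2% in Rpl7a and 64.3% in Rpl6. In Rpl12 it was 49.0%, in Rpl32 29.7% and in Rpl4 16.5%.

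The 46 core genes with at least 50% of windows elsewhere had a median level of 59.4 CPM per kb, and the other 30 had 124 CPM per kb. Spearman's rho between the share of such windows and the level was -0.28 across the 76 genes, and it was 0.28 between that share and the log2 fold change; both are descriptions across genes of the same 8 libraries. Median log2 fold changes were 0.25 for the 46 genes, of which 6 were called higher, and 0.17 for the 30, of which 5 were. No source used here states how reads with several alignments were counted. The table also held 221 -ps rows named after 54 of the members, which took 0.669% ± 0.0246 of counts with sal003 and 0.526% ± 0.0164 with DMSO (SD, n = 4 each), without overlap between the groups.

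**Figure D3:**
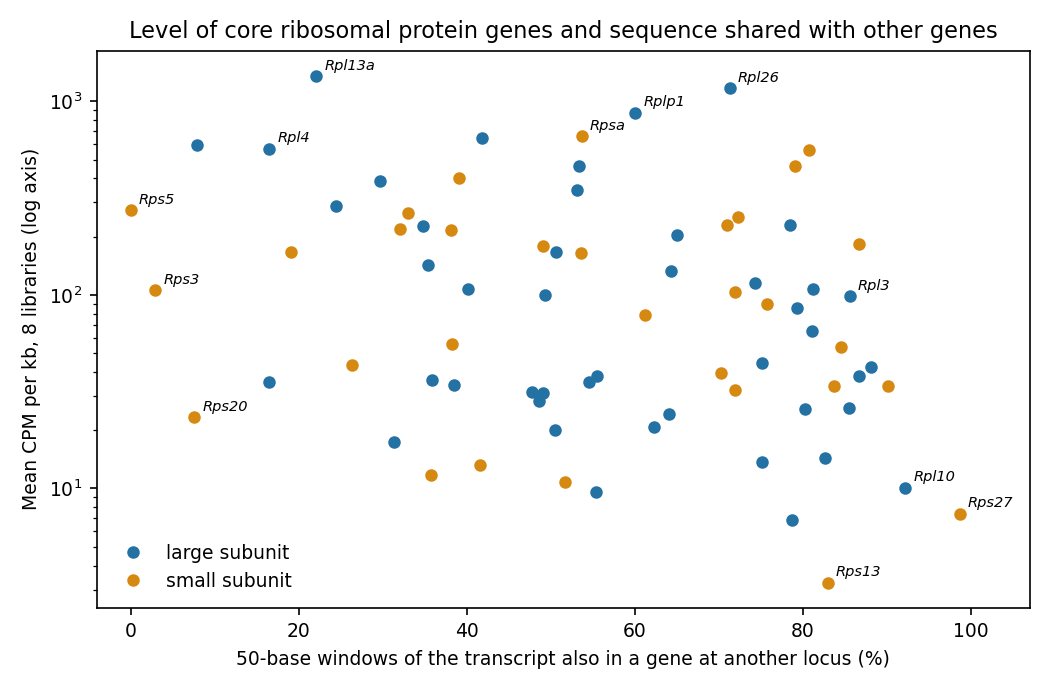
Mean CPM per kb over the 8 libraries (log axis) of the 76 core genes against the percent of their transcript's 50-base windows that also occur in a gene at another locus, coloured by subunit. Rpl13a is highest at 22.0% of windows, and the lowest genes, Rps13, Rpl17 and Rps27, lie at 78.7% to 98.6%, with both high and low genes in between.

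None of 8 widely studied members was called. Rps6, the small-subunit protein phosphorylated by S6 kinase, had 49.1, 56.5, 48.3 and 48.7 CPM in the sal003 libraries, against 42.2, 45.4, 39.3 and 48.8 CPM in the DMSO libraries, with a log2 fold change of 0.20 ± 0.12 (adjusted p by edgeR = 0.293). Sal003 replicate 2 was the highest, and the other sal003 values were at or just above the top DMSO value or just under it. Rpl5 and Rpl11 form a complex with 5S ribosomal RNA that binds Mdm2 and so stabilises p53. Rpl5 had 57.5, 66.1, 68.5 and 62.5 CPM in the sal003 libraries, against 54.7, 40.3, 59.0 and 52.6 CPM in the DMSO libraries, with a log2 fold change of 0.30 ± 0.13 (adjusted p by edgeR = 0.125). Rpl11 had 19.8, 17.5, 21.4 and 21.9 CPM in the sal003 libraries, against 17.8, 13.6, 16.5 and 10.3 CPM in the DMSO libraries, with a log2 fold change of 0.47 ± 0.21 (adjusted p by edgeR = 0.133). For both, the top DMSO library, replicate 3 for Rpl5 and replicate 1 for Rpl11, exceeded the lowest sal003 library.

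The stalk proteins Rplp0, Rplp1 and Rplp2 recruit elongation factors to the large subunit. Rplp0, often used as a reference gene, had 771, 872, 791 and 827 CPM in the sal003 libraries, against 869, 1388, 779.8 and 752 CPM in the DMSO libraries. DMSO replicate 2 was far above all others, and the remaining DMSO libraries fell within or below the sal003 range. For Rplp0 the log2 fold change was -0.22 ± 0.17 (edgeR adjusted p = 0.450) and turned to 0.04 without DMSO replicate 2. Rplp1 had 388, 387, 470.1 and 531 CPM in the sal003 libraries, against 519.7, 288, 492 and 413 CPM in the DMSO libraries, and Rplp2 had 75.5, 83.1, 105 and 101 CPM in the sal003 libraries, against 94.1, 39.1, 106 and 79.2 CPM in the DMSO libraries. In both genes DMSO replicate 2 was instead the lowest. Their log2 fold changes were 0.05 ± 0.17 (edgeR adjusted p = 0.889) and 0.20 ± 0.25 (edgeR adjusted p = 0.689), and each was below 0 without DMSO replicate 2 (-0.09 and -0.02).

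Rpsa, which is also known as a laminin receptor, had 1085, 1156, 1058 and 1171 CPM in the sal003 libraries, against 796, 1289, 924 and 963 CPM in the DMSO libraries, with DMSO replicate 2 above every other library. Its log2 fold change was 0.17 ± 0.12 (edgeR adjusted p = 0.372), and without that library it was 0.33 and past the threshold. Rps3, a small-subunit protein with a role in DNA repair, had 186, 204, 210.2 and 241 CPM in the sal003 libraries, against 200.3, 162, 196 and 212 CPM in the DMSO libraries, with wide overlap; the log2 fold change was 0.13 ± 0.10 (adjusted p by edgeR = 0.467). Among the members highest per kb, Rpl13a had 1353, 1511, 1466 and 1538 CPM in the sal003 libraries, against 1484, 1338, 1340.0 and 1270.1 CPM in the DMSO libraries, and Rpl26 had 561, 559, 721 and 822 CPM in the sal003 libraries, against 559.8, 503, 606 and 573 CPM in the DMSO libraries. The ranges overlapped in both, and the log2 fold changes were 0.11 ± 0.08 (edgeR adjusted p = 0.369) and 0.25 ± 0.12 (edgeR adjusted p = 0.159). Exons of 2 other annotated genes, Gm45713 and Mir5121, overlap Rpl13a on its own strand.

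DMSO replicate 2 gave low values for many ribosomal protein genes. It was the lowest of the 8 libraries at 42 of 85 members (49.4%), against 28.1% of all genes tested. It was the highest at 9 of 85, against 21.9% of all genes tested. At 15 members it was under 0.5 times the mean of the other 3 DMSO libraries, a count for which the share over all genes was not computed. Rps28 was at -2.16 on the log2 scale relative to that mean, Rpl36a at -2.01, Rps21 at -1.62 and Rpl41 at -1.41. On the other side, Rplp0 was at 0.79 and Rpl35 at 0.59. These 6 genes were picked after their values were seen and are not the extremes. Rps3a3 was at -2.18, Rpl37 at -1.68 and Rps13 at 0.99. Of 38 core genes with transcripts of up to 729 bases, 9 were under 0.5 times, and of the 38 longer ones, 4 were. Spearman's rho between length and the deviation was 0.16 across the 76 core genes, as a description of this library.

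**Figure D4:**
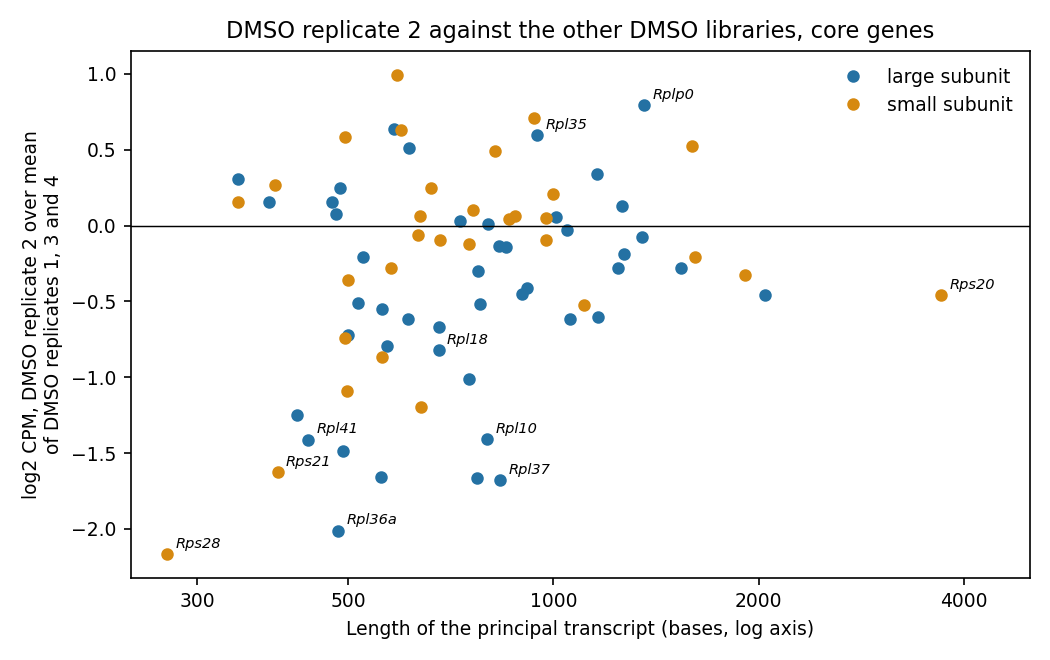
Log2 ratio of CPM in DMSO replicate 2 to the mean of DMSO replicates 1, 3 and 4 for the 76 core genes, against the length of the principal transcript (log axis), coloured by subunit. Rps28 lies lowest at -2.16 and Rpl36a next at -2.01, while Rplp0 lies at 0.79, and genes under -1 have transcripts of at most 835 bases.

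Paralogs replace or accompany a core protein in some tissues. Rpl10l and Rpl39l, known from the testis, had 0 counts in every library. Rpl10, the partner of Rpl10l and a late-joining large-subunit protein, had 11.6, 12.7, 8.40 and 9.06 CPM in the sal003 libraries, against 6.14, 2.55, 7.82 and 6.37 CPM in the DMSO libraries, without overlap and with DMSO replicate 2 the lowest. Its estimate of 0.87 ± 0.34 on the log2 scale was the largest of the core genes and was not called (edgeR adjusted p = 0.0836). The partner of Rpl39l, Rpl39, had 20.2, 19.5, 27.7 and 24.3 CPM in the sal003 libraries, against 21.1, 14.5, 25.7 and 19.9 CPM in the DMSO libraries, which overlapped. Rpl3l had 2 counts in DMSO replicate 3 and 0 in the other 7 libraries, beside 158 ± 13.2 CPM of Rpl3 with sal003 and 108 ± 6.28 CPM with DMSO (SD, n = 4 each). Muscle differentiation genes, by contrast, were abundant in the DMSO libraries. All 12 of 12 listed were lower with sal003, against 12.2% of all genes, with a median log2 fold change of -2.37. Among them were Myl4 (-3.56) and Actn2 (-3.09). The part of this decrease in the ribosomal protein values was not tested. Rps12l2, annotated as a pseudogene, was the fourth member that did not pass the filter on low counts.

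The ratio of paralog to partner was compared for the 5 of 8 pairs in which both passed the filter, with exact two-sided permutation tests over the libraries, whose smallest possible p is 0.0286, adjusted over the 5 pairs; none of the 5 passed after adjustment. At least 3 pairs at that smallest p are needed for any to pass, so a single pair with groups fully apart could not. Rpl22l1, which competes with Rpl22 for ribosomes and shares its RNA target sites, had 6.69, 3.01, 6.22 and 6.59 CPM in the sal003 libraries, against 2.59, 1.54, 5.11 and 2.63 CPM in the DMSO libraries. DMSO replicate 3 lay above sal003 replicate 2, and the others were apart. The log2 ratio Rpl22l1/Rpl22 was -4.46, -5.44, -4.46 and -4.49 in the sal003 libraries and -5.62, -6.51, -4.67 and -5.54 in the DMSO libraries. The difference was 0.87 ± 0.45 (SE; exact permutation p = 0.0571, adjusted 0.143). For Rpl22l1 itself the log2 fold change was 0.92 ± 0.47 (adjusted p by edgeR = 0.194), and Rpl22 0.11 ± 0.09 (edgeR adjusted p = 0.464).

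Rps4l, listed under the symbol Rps4y2 and annotated as a transcribed processed pseudogene, had 2.01, 4.46, 3.81 and 2.01 CPM in the sal003 libraries, against 7.16, 5.43, 7.93 and 6.15 CPM in the DMSO libraries. Every sal003 library was below every DMSO library. The log2 fold change of Rps4y2 was -1.12 ± 0.40 (edgeR adjusted p = 0.0582), which was not a call, although DESeq2, limma-voom, a fit with the length trend removed and the fit without DMSO replicate 2 each called it lower. Rps4x, its X-linked partner, had 241, 250.4, 249 and 253 CPM in the sal003 libraries, against 230.1, 252, 243 and 255 CPM in the DMSO libraries, which overlapped fully. The log2 ratio to Rps4x was lower by 1.21 with sal003, at -6.42 ± 0.593 with sal003 and -5.21 ± 0.287 with DMSO (SD, n = 4 each; exact permutation p = 0.0286, adjusted 0.143).

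Rps27l, a reported p53 target, had 7.55, 5.86, 7.32 and 8.67 CPM in the sal003 libraries, against 1.69, 6.29, 7.96 and 9.47 CPM in the DMSO libraries. DMSO replicate 1 was the lowest and replicate 4 the highest of the 8, so the sal003 libraries lay inside the DMSO range. The fold change of Rps27l was 0.21 ± 0.42 on the log2 scale (adjusted p by edgeR = 0.809). Of 14 other listed p53 targets, 12 were lower with sal003, against 12.2% of all genes, with a median log2 fold change of -1.12. Among them were Cdkn1a (-1.85) and Ccng1 (-1.29). The log2 ratio Rps27l/Rps27 was 1.29 ± 0.563 with sal003 and 1.70 ± 1.90 with DMSO (SD, n = 4 each; exact permutation p = 0.686, adjusted 0.857), and the difference of -0.42 became 0.17 without DMSO replicate 3. Of their 50-base windows, 22.4% in Rps27l and 98.6% in Rps27 were also found in a gene at another locus. The part of this in a ratio above 0 was not tested.

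Rpl36al had 53.2, 49.98, 53.5 and 58.1 CPM in the sal003 libraries, against 56.2, 67.4, 67.2 and 42.5 CPM in the DMSO libraries, and its level per kb, 106 CPM, was above the 26.1 CPM per kb of its partner Rpl36a. Of their 50-base windows, 46.5% in Rpl36al and 85.5% in Rpl36a were also found in a gene at another locus. Counts of the 2 genes may therefore be affected unequally, and the part of this in the levels was not tested. Rpl36a had 17.8, 8.71, 11.9 and 12.6 CPM in the sal003 libraries, against 14.3, 3.80, 18.1 and 13.6 CPM in the DMSO libraries. Neither pair of ranges was apart, and DMSO replicate 2 was the lowest of all for Rpl36a. The log2 ratio was 2.12 ± 0.392 with sal003 and 2.42 ± 1.16 with DMSO (SD, n = 4 each; exact permutation p = 0.857, adjusted 0.857), and the difference of -0.30 became 0.28 without DMSO replicate 2. Rpl7l1, whose product acts in ribosome assembly, had 184, 166, 182 and 170.3 CPM in the sal003 libraries, against 174, 97.5, 165 and 173 CPM in the DMSO libraries. Replicate 2 was the low DMSO library there and also for Rpl7, and the log2 ratio was steady at -1.75 ± 0.102 with sal003 and -1.69 ± 0.138 with DMSO (SD, n = 4 each; difference -0.06 ± 0.09, SE; exact permutation p = 0.571, adjusted 0.857).

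**Figure D5:**
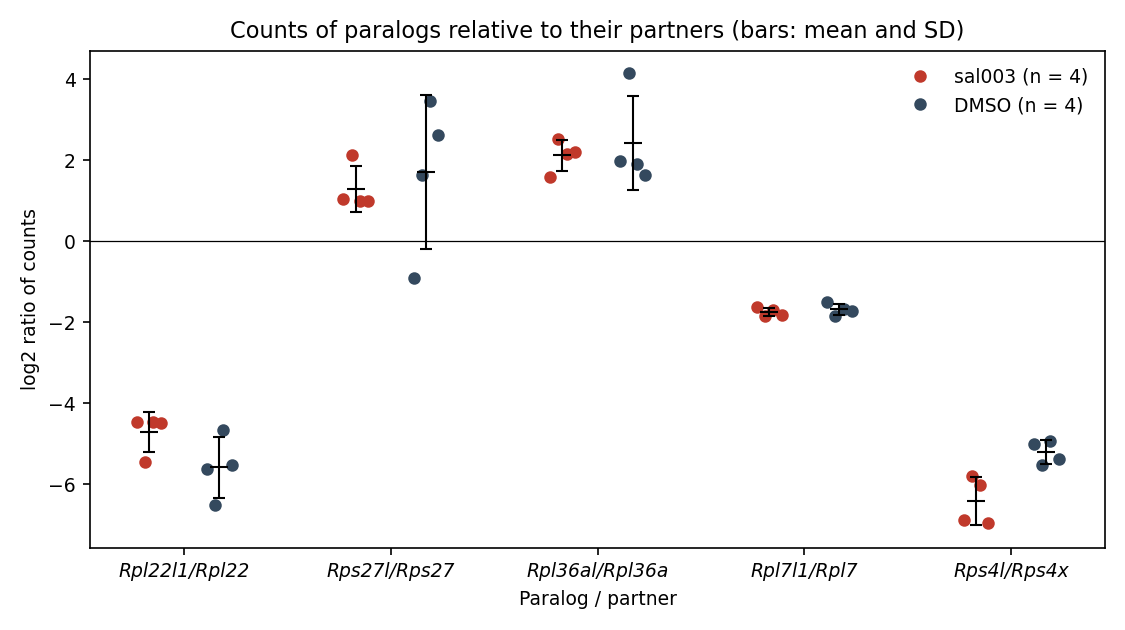
Log2 ratio of paralog to partner counts in each sal003 and DMSO library for the 5 tested pairs, with the mean and SD as bars. The Rps4l/Rps4x ratios do not overlap between groups (-6.42 on average with sal003, -5.21 with DMSO), and the Rps27l/Rps27 and Rpl36al/Rpl36a ratios spread widest among the DMSO libraries.

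Fau, which encodes a small-subunit protein fused to a ubiquitin-like protein, and Gnb2l1 (Rack1), a scaffold of the small subunit, lie outside the rule. Their log2 fold changes were -0.22 and 0.00, and neither passed the test (edgeR adjusted p = 0.669 and 0.997). Of 19 other genes with reported TOP mRNAs, 4 were higher (Pabpc1 0.88, Nap1l1 0.95, Hnrnpa1 0.75 and Eif4b 0.51) and 2 lower (Naca -0.72 and Tpt1 -0.41), with a median of 0.12. Over all genes tested, 10.6% were called higher and 12.2% lower. Those that rose include the poly(A)-binding protein Pabpc1 and the translation factor Eif4b.

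Of 30 genes of ribosome assembly and ribosomal RNA synthesis, 16 were higher and 0 lower, with a median log2 fold change of 0.43. The shares over all genes, for this and the following lists, were 10.6% higher and 12.2% lower. The 4 with the smallest p were Ncl (1.17), Npm1 (1.13), Mybbp1a (0.69) and Nop56 (0.89), nucleolar proteins. Summed, the 30 had 5539 to 5810 CPM with sal003 and 3254 to 3713 CPM with DMSO. The ribosomal proteins' median of 0.21 was under that, and the difference between the lists was not tested. Of 7 dedicated chaperones of ribosomal proteins, 0 passed in either direction, with a median of 0.27. Among 13 regulators of ribosomal protein synthesis, Myc (0.90) and Larp1 (0.28) were higher and Tsc2 (-0.80), Mtor (-0.60) and Rps6kb2 (-0.60) lower, with a median of -0.10. Of 9 satellite cell and myoblast markers, Pax7 was higher (0.43) and Cdh15 (-0.92) and Itga7 (-0.56) lower.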

How the data were processed

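Total RNA from 8 satellite cell cultures was depleted of ribosomal and mitochondrial RNA and made into stranded libraries, per the labels' protocols. The submitters' processing notes name featureCounts 1.4.4, STAR 2.3.0e, the build mm10 and Trimmomatic 0.32; strand and multi-alignment settings are not given in the sources used. The authors deposited whole-number counts per gene, not normalized, in 8 columns that were assigned to samples through their names. Of the counts from 1 to 20, 75.56% to 83.35% were even in each library, so halved counts were an alternative. The labels name a MiSeq, for which the totals are high.

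Counts were analysed in R 4.3.3 with edgeR 4.0.16: filterByExpr by condition (minimum count 10, minimum total 15), TMM scaling, and robust quasi-likelihood fits of sal003 against DMSO with no further term, two-sided, with Benjamini-Hochberg adjustment over all 15816 tested genes and a threshold of 0.05. CPM are TMM-scaled; SE is that of the log2 fold change. Precision was set by the spread between libraries and by 32753929 to 40234107 counts each, and depth covers counting error only. Replicate pairs differed far beyond counting noise (chi-square per degree of freedom of at least 25.3), so none was treated as a duplicate. DESeq2 1.42.0 and limma-voom 3.58.1 were alternatives, with those on scaling, filtering, GC content, length, pseudogene rows and left-out libraries. Paralog ratios used counts with 0.5 added.

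Members, gene lists and tests were chosen with earlier results of these data known. Genes were named by rule: paralogs and partners, members past the threshold, the 5 most abundant by CPM and per kb, 8 fixed members, and up to 4 called genes per list in order of p; Rpl17, Rps13, Hnrnpa1, Tpt1, Larp1, uncalled markers and genes named for DMSO replicate 2 were chosen after their values were seen. GENCODE M21 held 37693 of 39017 identifiers (96.6%). Promoters came from RefSeq (GRCm38.p6). A listed partner gene is not reported here.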

Additional observations from a re-analysis of the deposited data

Results flagged for a closer look

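In 80 groups of 4 libraries, 8 had a library far from the other 3 (by Dixon's gap ratio at the critical value), where chance gives about 1 in 20. Sal003 replicate 2 stood apart in 4 of them: it was low for Rpl22l1, at 3.01 CPM, and for the log2 ratio Rpl22l1/Rpl22, at -5.44, and high for Rps6, at 56.5 CPM, and for the log2 ratio Rps27l/Rps27, at 2.13. DMSO replicate 2 stood apart in 3: it was low for Rpl18, at 41.5 CPM, and for Rpl7l1, at 97.5 CPM, and high for the log2 ratio Rpl36al/Rpl36a, at 4.14. DMSO replicate 3 was low for Rpl14, at 80.8 CPM.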

How the results depend on the processing

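The number of members called higher was 12 and ranged from 6 to 18 when a library was left out, and was 19 with limma-voom. The number called lower was 0, and 1 (Rps4y2) by DESeq2, by limma-voom and with the length trend removed; it was 0 to 1 when a library was left out (1 without DMSO replicate 2). With Rpl24's own row in place of the Zbtb11 one, an alternative chosen after seeing the data, 11 members were called higher. The share of counts differed by 0.295 percentage points between sal003 and DMSO, and by 0.438 with pseudogene rows added. When a library was left out, the Rpl36al/Rpl36a difference ranged from -0.56 to 0.28 and the Rps27l/Rps27 difference from -1.29 to 0.17. The cause was not tested.

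Some log2 fold changes near 0 changed sign. Leaving out a library gave ranges of -0.0250 to 0.113 for Gnb2l1, -0.25 to 0.28 for Rpl36a, -0.30 to 0.0388 for Rplp0, -0.0850 to 0.169 for Rplp1, -0.0187 to 0.374 for Rplp2, -0.0972 to 0.481 for Rps27l and -0.000183 to 0.0546 for Rps4x. Gnb2l1 gave -0.00348 with DESeq2 size factors, -0.00347 by DESeq2, -0.00209 with halved counts, -0.0103 with upper-quartile scaling, -0.00808 with the GC trend removed and -0.0390 with the 10 CPM filter. Under that filter Rpl36a gave -0.00093 and Rps4x -0.0200. Limma-voom gave -0.24 for Rpl36a and -0.0859 for Rplp1, pseudogene rows gave -0.0859 for Rpl36a, and the length trend gave -0.13 for Rplp1. Of the other single-gene values, 1112 kept their direction and side of the threshold, 10 moved past it and 46 fell short of it.

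Groups share replicate numbers, and the deviations of same-numbered libraries were only weakly correlated (-0.0053 to 0.035). Such weak correlations cannot show whether the numbers pair the cultures, and the main fit did not pair them. With a replicate block, 10 members were called higher and 0 lower, with a median of 0.23, and 1660 genes were higher and 1770 lower; for the paralog ratios (0.87, -0.42, -0.30, -0.06 and -1.21) the smallest sign-flip p is 0.125. Rps13, Rps27 and Rpl38 had 11 to 264 counts in a library and SEs of 0.52 to 0.75 (log2); the part of depth in these was not tested.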
